A study of Homo sapiens with 6 samples.

Results

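The genes described here encode proteins that recognise foreign or misplaced nucleic acid inside the cell, together with an adaptor and the enzymes that act on the same RNA. They are 10 listed genes of the 20802 genes with an amplicon: DDX58, IFIH1, DHX58, MAVS, TLR3, ZBP1, EIF2AK2, ADAR, AIM2 and DDX60. They were chosen by name, as genes of this pathway, and the rule uses no measured value, although earlier results of these data were known when the list was drawn up. All 10 have an amplicon in the data, 8 had enough reads to be tested, and ZBP1 and AIM2 did not.

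Double-stranded RNA in the cytosol is bound by the helicases RIG-I (encoded by DDX58) and MDA5 (encoded by IFIH1), which pass the signal to the mitochondrial adaptor MAVS and so switch on interferon genes. LGP2, encoded by DHX58, is the relative of both that lacks the signalling domains. TLR3 reads double-stranded RNA in endosomes, the kinase PKR (encoded by EIF2AK2) stops translation when it binds such RNA, ADAR edits it from adenosine to inosine, and ZBP1 and AIM2 respond to Z-form nucleic acid and to cytosolic DNA. Many of these genes are themselves interferon-inducible.

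All samples were labelled as MCF10A, an established, non-tumorigenic human mammary epithelial line. Expression was measured with Ion AmpliSeq Transcriptome sequencing, in which a single short amplicon for each gene is amplified from cDNA and its reads are counted. The 6 libraries were labelled as 2 replicates each of wt, eGFP and GIRK1. The wt cells are the untransfected parental line. The eGFP cells carry the vector pIRES2eGFP, which makes the green fluorescent protein alone, and the GIRK1 cells carry the same vector with the coding sequence of KCNJ3, which encodes the potassium channel subunit GIRK1. Both transfected lines were made with Lipofectamine, selected with G418 and sorted on eGFP fluorescence, so that both differ from wt by the vector, the selection and the sort. The methods speak of sorted cells and mention no cloning step, and whether the replicates come from separate cultures or transfections is not stated. The p-values therefore measure only the spread between these libraries, which may be technical.

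The libraries held between 2506120 and 16040556 reads, and a count of 3 reads, used as the detection limit, corresponded to 0.187 to 1.20 RPM (reads scaled to each library's total). KCNJ3 had 2408 and 3677 reads in the GIRK1 libraries and 0 in both eGFP libraries and in wt replicate 2. The library labelled wt replicate 1 stood apart, and its markers go against the label. It had 48 reads of KCNJ3, its 10 basal mammary markers summed to 397 RPM against 9756 to 17330 RPM in the other 5 libraries, and its 10 luminal markers summed to 18911 RPM against 531 to 1029 RPM. It is shown beside the others below and was left out of the comparisons. In the other 5 libraries 9 of the 10 basal markers were read and TP63, a defining one, was at 0. Of 8 immune markers 6, among them PTPRC, CD3E, HLA-DRA, LYZ and TYROBP, were at 0 in all 6 libraries. The names of the deposited data place both GIRK1 libraries under a tag that the other 4 do not carry. The meaning of the tag is not given in the sources used here, and an effect of it cannot be told apart from the condition.

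Parts of the promoters are shown because most members moved together in the comparisons below. Interferon-stimulated genes are known for an element whose core is GAAANNGAAA, which is bound by IRF factors, and for the STAT element TTCNNNGAA. RefSeq windows (GRCh38.p14) of 300 bases, reaching from 250 bases before the annotated start to 50 after it, were held for 8 of the 10 genes. DHX58 and ZBP1 had no window. On either strand, GAAANNGAAA was found in 5 of the 8 genes (IFIH1, TLR3, EIF2AK2, AIM2 and DDX60) and in 3.57% of all 35116 windows. By gene it was found in 4.38% of 27305 genes, some of which have several windows. TTCNNNGAA, which reads alike on both strands, was found in TLR3 and DDX60 and in 7.66% of all windows. The window of DDX58 and the 3 windows of ADAR, as well as that of MAVS, held neither. The DDX58 window does hold the letters GAAANGAAA, with 1 base fewer in the spacer. That form was searched after the window had been read, and it occurs in the DDX60 window too and in 3.12% of all windows. The stretches below are written 5′ to 3′ on the strand of the gene, with the GAAANNGAAA match of either strand in capitals, and for DDX58 the shorter form.
IFIH1 (minus strand, chr2:162318675-162318724): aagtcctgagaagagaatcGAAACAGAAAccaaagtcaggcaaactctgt
TLR3 (plus strand, chr4:186069116-186069165): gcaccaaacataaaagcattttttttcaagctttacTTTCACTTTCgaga
EIF2AK2 (minus strand, chr2:37156971-37157020): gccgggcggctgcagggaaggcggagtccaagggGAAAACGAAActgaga
DDX60 (minus strand, chr4:168318793-168318852): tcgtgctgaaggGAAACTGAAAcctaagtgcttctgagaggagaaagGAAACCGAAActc
DDX58 (minus strand, chr9:32526377-32526416): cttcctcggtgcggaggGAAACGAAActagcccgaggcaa

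The matches of EIF2AK2 and TLR3 lay across the annotated start of their RefSeq windows, at bases -6 to 4 and -4 to 6. All positions of matches count from the RefSeq start, which can differ from the start of the GENCODE gene positions given below. For EIF2AK2 the GENCODE gene begins at 37157065, upstream of the whole stretch shown. In IFIH1 the match shown lay at -21 to -12, and a pair of overlapping matches on the other strand lay further up, between -159 and -144. DDX60 had matches at -88 to -79 and -53 to -44, and AIM2 had one at -190 to -181 on the other strand. A match is only a run of letters, and binding of any factor was not measured.

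**Figure D1:**
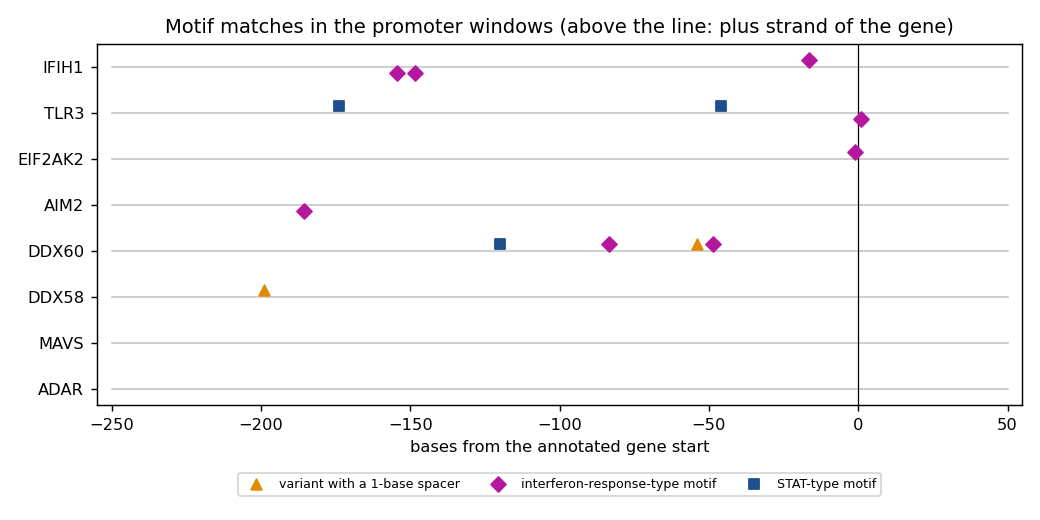
Motif matches in the 300-base promoter windows of the 8 genes that have one, by distance in bases from the annotated RefSeq start. Diamonds stand for GAAANNGAAA, squares for TTCNNNGAA and triangles for GAAANGAAA. Markers above a line lie on the strand of the gene and those below it on the other strand. Diamonds stand in IFIH1, TLR3, EIF2AK2, AIM2 and DDX60, triangles stand in DDX58 and DDX60, and MAVS and ADAR hold none of the 3.

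The first comparison asked whether the sensor genes differ between GIRK1 cells and eGFP cells, the contrast the study was built on. Of the 8 genes tested, 6 rose in GIRK1 cells (DDX58, IFIH1, DHX58, TLR3, EIF2AK2 and DDX60), by 3.65-fold for EIF2AK2 to 11.0-fold for DDX60. ADAR was 2.51-fold higher and missed the threshold. None fell by edgeR or by DESeq2, and MAVS, at 0.909-fold the only member below 1, had an unadjusted p of 0.69 (edgeR). Across all 11779 genes tested, 0.756% were called higher by the same test (the quasi-likelihood test of edgeR, with p-values adjusted over all genes by Benjamini-Hochberg, threshold 0.05). DESeq2 called 7 sensor genes higher, ADAR included, against 1.87% of the 11737 genes it tested. The median log2 fold change was 2.47 over the 8 sensor genes and 0.02 over all genes tested. In bulk RNA, more cells that express a gene and more of its RNA in each cell cannot be told apart. With wt replicate 1 added to the wt group, so that all 6 libraries shared one estimate of the spread, 0 of 11546 genes and 0 sensor genes were called by edgeR, while 606 genes had an unadjusted p below 0.05. The fold changes of the 8 genes in that fit were -0.14 to 3.48 on the log2 scale.

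The second comparison took the eGFP libraries and wt replicate 2 together as 3 controls, so that the parental cells were included. Again 6 of the 8 tested genes rose, now DDX58, IFIH1, TLR3, EIF2AK2, ADAR and DDX60, against 0.799% of 11389 genes called higher. The genes called in both comparisons were 5, since DHX58 was called only against eGFP and ADAR only against the 3 controls. Whether those differ between the comparisons was not tested, and the comparisons share the eGFP and GIRK1 libraries. This count rested on single libraries. Without eGFP replicate 2 it was 1 (DDX58), without GIRK1 replicate 1 it was 2 (DDX58 and IFIH1), without GIRK1 replicate 2 it was 1 (DDX58), and without eGFP replicate 1 it was 7. Against eGFP alone the count was 5 to 7 whichever library was left out. Both GIRK1 libraries lay above all 3 controls for 7 of the 8 tested genes, every one but MAVS, and this held for 21.6% of the genes tested.

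**Figure D2:**
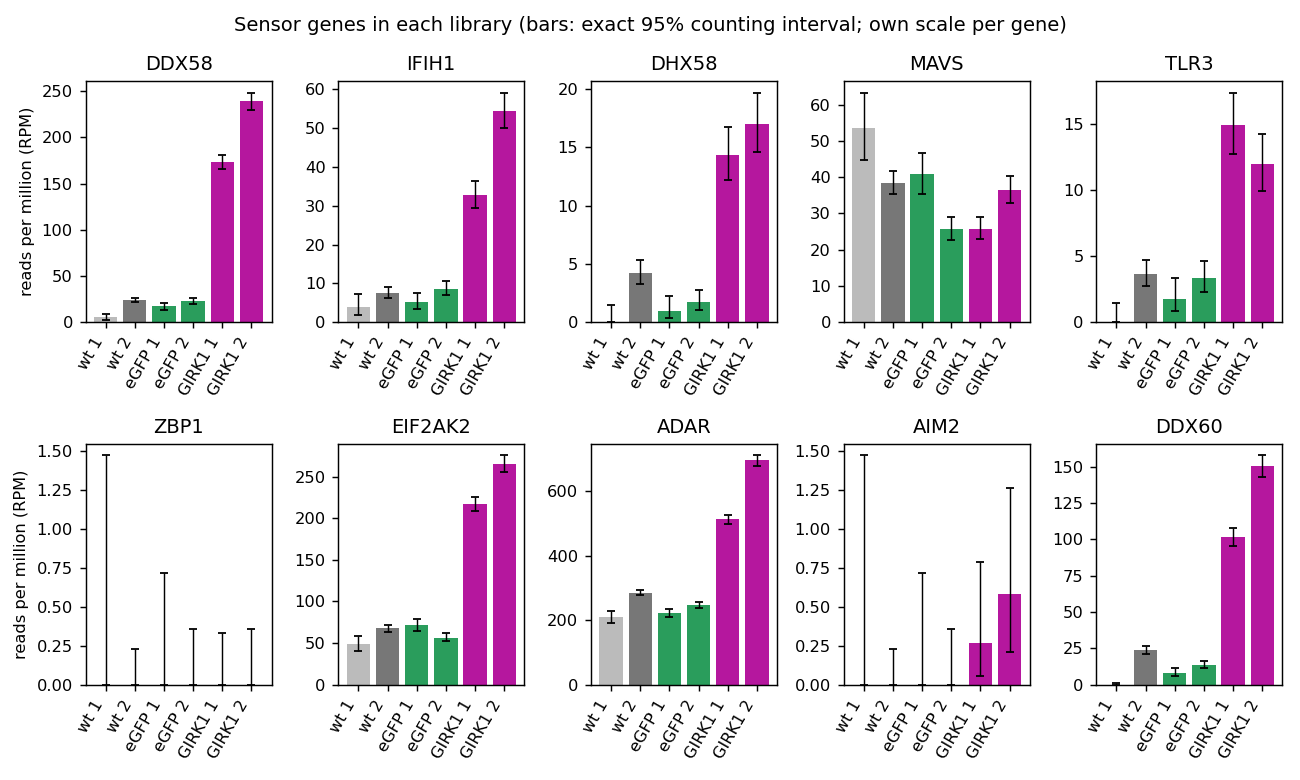
RPM of each sensor gene in each of the 6 libraries, on a linear axis from 0 with its own scale for each gene, with grey bars for wt, green for eGFP and magenta for GIRK1. The lines are exact 95% counting intervals. The 2 GIRK1 bars are the tallest for DDX58, IFIH1, DHX58, TLR3, EIF2AK2, ADAR and DDX60, overlap the controls for MAVS, and are at 0 for ZBP1.

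Among the RNA helicases, DDX58 had the smallest p-value of the members in both comparisons. RIG-I, its product, binds short RNA ends that carry a triphosphate. The gene occupies bases 32455705 to 32526324 of chromosome 9 (minus strand; all gene positions are GENCODE v29 on GRCh38), and its amplicon is 101 bases long. It had 87 and 235 reads in the eGFP libraries (17.0 and 23.0 RPM), 381 in wt replicate 2 (23.8 RPM), and 1926 and 2474 in the GIRK1 libraries (173 and 239 RPM). The 3 controls lay close together, and the lower GIRK1 library was 7.30-fold above the highest of them. The mean rose from 20.0 ± 4.24 RPM in eGFP cells (SD, n = 2) to 206 ± 46.5 RPM in GIRK1 cells (SD, n = 2), a fitted log2 fold change of 3.33 ± 0.28 (SE; edgeR, adjusted p = 0.0037). Against the 3 controls the log2 fold change was 3.26 ± 0.22 (SE; edgeR, adjusted p = 0.0014). DDX58 was called in both comparisons whichever of the 5 libraries was left out, with adjusted p-values of 1.0e-06 to 0.024 (edgeR).

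IFIH1, on chromosome 2 from 162267079 to 162318703 (minus strand), encodes MDA5, which binds long double-stranded RNA. It had 26 and 88 reads in the eGFP libraries (5.07 and 8.60 RPM), 121 in wt replicate 2 (7.54 RPM), and 364 and 564 in the GIRK1 libraries (32.8 and 54.5 RPM). Both GIRK1 libraries lay well above the controls, although each group's second library was about as far above its first, 1.70-fold in eGFP and 1.66-fold in GIRK1. The mean was 6.84 ± 2.49 RPM in eGFP cells and 43.6 ± 15.4 RPM in GIRK1 cells (SD, n = 2 each), and the log2 fold change was 2.62 ± 0.37 (SE; edgeR, adjusted p = 0.026). Against the 3 controls it was 2.59 ± 0.30 (SE; edgeR, adjusted p = 0.011). That call was lost without eGFP replicate 2 (edgeR, adjusted p = 0.075) and without GIRK1 replicate 2 (edgeR, adjusted p = 0.15).

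DHX58, on chromosome 17 from 42101404 to 42112733 (minus strand), was the lowest of the helicases in reads. LGP2, its product, modulates the other sensors of its family. It had 5 and 18 reads in the eGFP libraries (0.975 and 1.76 RPM), 68 in wt replicate 2 (4.24 RPM), and 159 and 176 in the GIRK1 libraries (14.3 and 17.0 RPM). The parental library stood above both eGFP libraries, at 3.10 times their mean, so the size of the difference depended on the control. Against eGFP the log2 fold change was 3.41 ± 0.40 (SE; edgeR, adjusted p = 0.013), and against the 3 controls it was 2.62 ± 0.48 (SE; edgeR, adjusted p = 0.063), which missed the threshold. With wt replicate 2 left out of the controls the latter was 3.41 (edgeR, adjusted p = 0.015), and without eGFP replicate 1 it was 2.34 (edgeR, adjusted p = 0.0056). Without eGFP replicate 2 it was 2.42 and was not called (edgeR, adjusted p = 0.23). Leaving out GIRK1 replicate 1 or 2 gave 2.79 or 2.51. With 5 reads in eGFP replicate 1, the exact 95% interval of that level ran from 0.317 to 2.28 RPM, which covers counting error only.

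DDX60, on chromosome 4 from 168216293 to 168318807 (minus strand), encodes a large helicase that has been described as an antiviral partner of the RIG-I-like receptors. It had 43 and 140 reads in the eGFP libraries (8.39 and 13.7 RPM), 382 in wt replicate 2 (23.8 RPM), and 1126 and 1554 in the GIRK1 libraries (101 and 150.2 RPM). As with DHX58, the parental library was above both eGFP libraries (2.16 times their mean), but the lower GIRK1 library was still 4.26-fold above it. DDX60 had the highest fold change of the members against eGFP, with means of 11.0 ± 3.74 and 126 ± 34.5 RPM (SD, n = 2 each) and a log2 fold change of 3.46 ± 0.33 (SE; edgeR, adjusted p = 0.0056). Against the 3 controls it was 3.00 ± 0.39 (SE; edgeR, adjusted p = 0.017), a call that was lost without eGFP replicate 2 (edgeR, adjusted p = 0.13), without GIRK1 replicate 1 (edgeR, adjusted p = 0.088) and without GIRK1 replicate 2 (edgeR, adjusted p = 0.22). Reads of the near relative DDX60L could be mapped to it or the reverse, and how shared reads were treated is not stated in the sources used here.

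MAVS, the adaptor that both RIG-I and MDA5 signal through, lies on chromosome 20 from 3846799 to 3876123 (plus strand). It had 209 and 263 reads in the eGFP libraries (40.8 and 25.7 RPM), 616 in wt replicate 2 (38.4 RPM), and 286 and 377 in the GIRK1 libraries (25.7 and 36.4 RPM). The groups overlapped fully. The log2 fold change was -0.14 ± 0.33 against eGFP (SE; edgeR, adjusted p = 0.84) and -0.19 ± 0.28 against the 3 controls (SE; edgeR, adjusted p = 0.76). Its sign turned when eGFP replicate 1 or GIRK1 replicate 1 was left out against eGFP (0.30 and 0.10), so no direction can be given for MAVS.

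TLR3, the receptor for double-stranded RNA in endosomes, lies on chromosome 4 from 186069152 to 186088069 (plus strand). It was read at a low level, with 9 and 34 reads in the eGFP libraries (1.755 and 3.32 RPM), 58 in wt replicate 2 (3.62 RPM), and 166 and 124 in the GIRK1 libraries (14.9 and 12.0 RPM). The 2 GIRK1 libraries were both above the controls, the lower one by 3.31-fold, and TLR3 was the member whose first GIRK1 library was above the second. The log2 fold change was 2.32 ± 0.39 against eGFP (SE; edgeR, adjusted p = 0.045) and 2.15 ± 0.32 against the 3 controls (SE; edgeR, adjusted p = 0.033). Both calls were near the threshold. Against eGFP the call was lost without GIRK1 replicate 1 (edgeR, adjusted p = 0.12) and without GIRK1 replicate 2 (edgeR, adjusted p = 0.061), and against the 3 controls it was lost without either of these or eGFP replicate 2 (edgeR, adjusted p = 0.17 to 0.31). The log2 fold change of TLR3 against eGFP was 2.03 to 2.83 over all alternatives.

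EIF2AK2 encodes PKR, which phosphorylates the initiation factor eIF2 alpha when it binds double-stranded RNA. The gene lies on chromosome 2 from 37099210 to 37157065 (minus strand). It had 367 and 581 reads in the eGFP libraries (71.6 and 56.8 RPM), 1089 in wt replicate 2 (67.9 RPM), and 2412 and 2747 in the GIRK1 libraries (217 and 265.5 RPM). The 3 controls were close to each other, and the parental cells were level with eGFP cells at 1.06 times their mean. Means were 64.2 ± 10.5 RPM in eGFP cells and 241 ± 34.2 RPM in GIRK1 cells (SD, n = 2 each). The log2 fold change was 1.87 ± 0.26 against eGFP (SE; edgeR, adjusted p = 0.023) and 1.86 ± 0.20 against the 3 controls (SE; edgeR, adjusted p = 0.0088). The latter call was lost without eGFP replicate 2 (edgeR, adjusted p = 0.075), without GIRK1 replicate 1 (edgeR, adjusted p = 0.070) and without GIRK1 replicate 2 (edgeR, adjusted p = 0.15).

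ADAR, on chromosome 1 from 154582057 to 154628013 (minus strand), edits double-stranded RNA and so keeps the cell's own RNA from being read as foreign. Where its amplicon lies in the transcript was not examined, so the interferon-inducible isoform was not told from the constitutive one. It had the most reads of the members, 1134 and 2528 in the eGFP libraries (221 and 247 RPM), 4571 in wt replicate 2 (285 RPM), and 5687 and 7183 in the GIRK1 libraries (512 and 694 RPM). The groups did not overlap, and the lower GIRK1 library was 1.80-fold above the highest control. Means were 234 ± 18.3 and 603 ± 129 RPM (SD, n = 2 each). The log2 fold change was 1.33 ± 0.24 against eGFP (SE; edgeR, adjusted p = 0.054) and 1.25 ± 0.20 against the 3 controls (SE; edgeR, adjusted p = 0.042). Both values are near the threshold, on either side of it. The value against eGFP ran from 1.07 to 1.55 over the libraries left out, and the call against the 3 controls was kept only without eGFP replicate 1 (edgeR, adjusted p = 0.0051), the other 4 omissions giving 0.057 to 0.45.

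ZBP1, which senses Z-form nucleic acid and can start necroptosis, lies on chromosome 20 from 57603846 to 57620576 (minus strand) and had 0 reads in all 6 libraries. At the depth of the GIRK1 libraries, levels below 0.270 and 0.290 RPM (3 reads) could not have been seen. AIM2, the inflammasome sensor of cytosolic DNA, lies on chromosome 1 from 159062484 to 159147096 (minus strand). It had 0 reads in wt replicate 2 and in both eGFP libraries, and 3 and 6 reads in the GIRK1 libraries. These 9 reads among 21453881 in the GIRK1 libraries, against 0 among 31401460 in the 3 controls, did not pass the read filter of the test. No fold change is given. With no filter on low counts AIM2 was fitted but not called against eGFP (edgeR, adjusted p = 0.32).

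**Figure D3:**
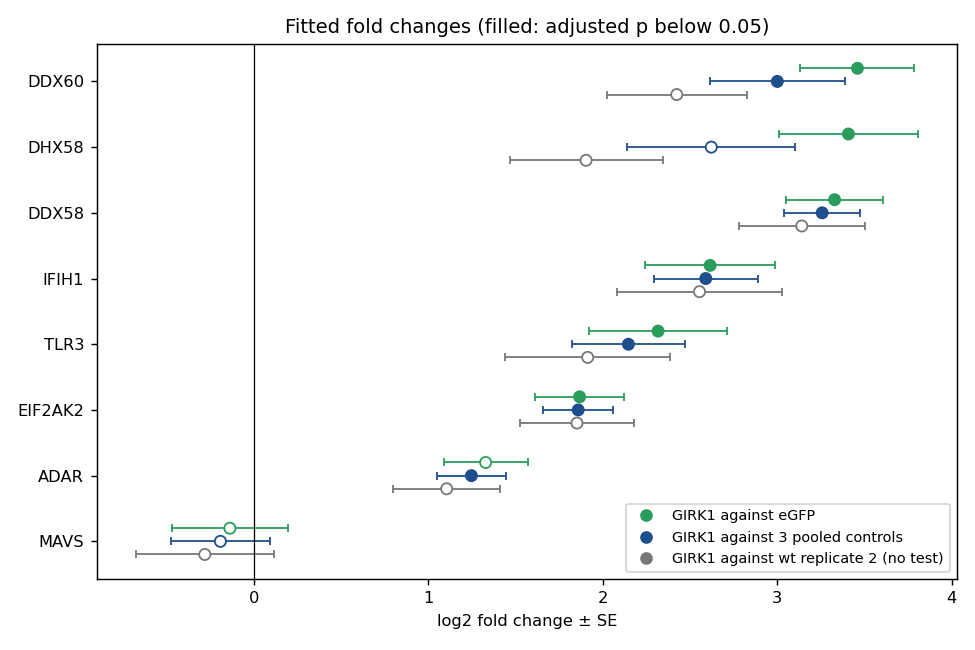
Fitted log2 fold changes with standard errors of the 8 tested sensor genes, for GIRK1 against eGFP (green), against the 3 pooled controls (blue) and against wt replicate 2 (grey, no test), with filled points where the adjusted p was below 0.05. DDX60, DHX58 and DDX58 lie highest against eGFP (3.33 to 3.46), MAVS lies at 0, and for DHX58 and DDX60 the grey points lie well to the left of the green ones.

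The parental cells were also set beside the GIRK1 cells on their own, as values with no test because wt replicate 2 is a single library. The log2 fold change of GIRK1 against wt replicate 2 was 3.14 for DDX58, 2.55 for IFIH1, 2.42 for DDX60, 1.91 for TLR3, 1.90 for DHX58, 1.85 for EIF2AK2, 1.11 for ADAR and -0.28 for MAVS. DHX58 and DDX60 came out lower against the parental cells than against eGFP, by the margin that the parental library had over the eGFP libraries. TLR3 was lower as well, with 2.32 against eGFP, by about its standard errors (0.39 against eGFP and 0.47 against wt replicate 2). ADAR and MAVS (1.33 and -0.14 against eGFP) were also lower, as were EIF2AK2, IFIH1 and DDX58. For these the margin was less than the standard error of either value. The median over the 8 genes was 1.91, and over all genes tested it was 0.01.

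The log2 fold changes against eGFP differed in size among the members. The 3 helicases DDX60, DHX58 and DDX58 lay between 3.33 and 3.46, closer together than their standard errors of 0.28 to 0.40. IFIH1 (2.62) and TLR3 (2.32) followed, again within their standard errors of each other, then EIF2AK2 (1.87) and ADAR (1.33). The differences between these genes were not tested. With the 3 controls DDX58 came first (3.26), and DHX58 (2.62) stood beside IFIH1 (2.59). Each amplicon has its own efficiency, so levels in RPM are compared here between libraries and not between genes.

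**Figure D4:**
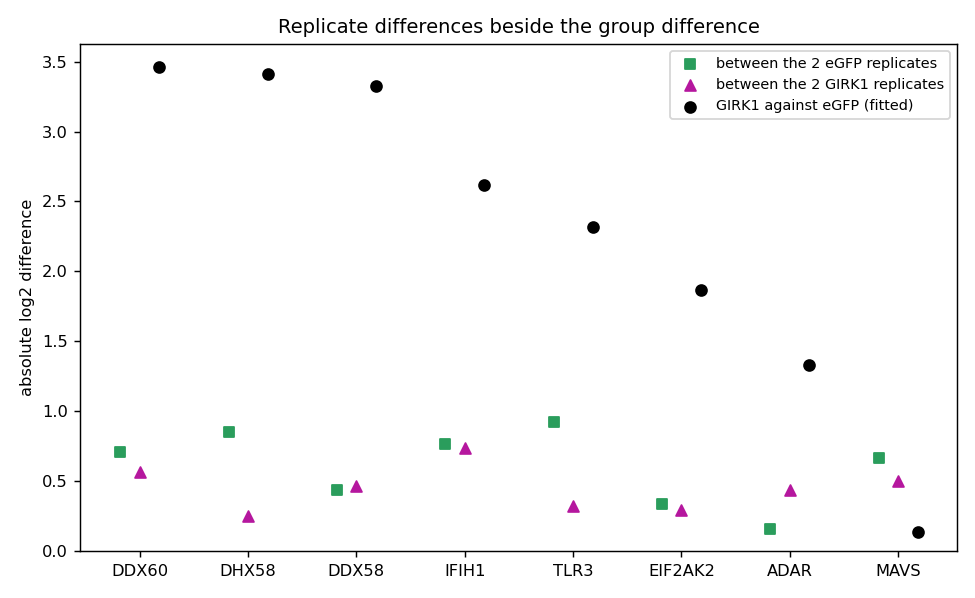
Absolute log2 difference of each tested sensor gene between the eGFP replicates (squares), between the GIRK1 replicates (triangles) and between GIRK1 and eGFP in the fit (circles). For MAVS the circle (0.14) lies under both replicate differences, and for the other 7 genes it lies above them.

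The replicates themselves moved together for several members. In eGFP cells, replicate 2 was above replicate 1 for 6 of the 8 tested genes, by up to 1.89-fold for TLR3, and replicate 1 was above for MAVS and EIF2AK2. In GIRK1 cells, replicate 2 was above for 7 of the 8, by up to 1.66-fold for IFIH1. Over all genes tested, 57.8% were higher in the second eGFP library and 46.0% in the second GIRK1 library. For every tested member but MAVS the difference between the groups was larger than that between the replicates of either group. By the rule of the study, read here as mean RPM 2-fold apart and an SD below 0.7 of the mean within each group, 7 members were higher in GIRK1 cells (DDX58, IFIH1, DHX58, TLR3, EIF2AK2, ADAR and DDX60), against 3.01% of all genes. With wt replicate 2 among the controls DHX58 no longer passed, and 6 remained.

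Both strands of the amplicons were read. In the 5 compared libraries, forward reads made up 39.6% to 50.1% of DDX58 reads, 41.3% to 69.2% of IFIH1 reads, 52.1% to 61.0% of DDX60 reads, 60.1% to 68.9% of MAVS reads, 43.3% to 54.2% of EIF2AK2 reads and 41.2% to 49.7% of ADAR reads. In the low-count genes DHX58 and TLR3 they made up 20.0% to 52.2% and 27.6% to 55.9%. The members' amplicons are 98 to 107 bases long. Their GC content ran from 30.0% in TLR3 to 59.6% in DHX58, against a median of 52.3% over all amplicons, and of the 6 genes called against eGFP only DHX58 was above that median. All 6 genes called against the 3 controls lay below it. So did MAVS (51.5%), ZBP1 (45.3%) and AIM2 (36.6%), which were called in neither comparison. The part of GC content in the results was not tested.

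In the library labelled wt replicate 1, 5 members had 0 reads (DHX58, TLR3, ZBP1, AIM2 and DDX60), where 3 reads would be 1.20 RPM. DDX58 had 13 reads (5.19 RPM, exact 95% interval 2.76 to 8.87) and IFIH1 had 10 (3.99 RPM, 1.91 to 7.34). EIF2AK2 (122 reads, 48.7 RPM, 40.4 to 58.1) and ADAR (527 reads, 210.3 RPM, 192.7 to 229.0) were below the other controls. Their intervals still held the nearest control, eGFP replicate 2 for EIF2AK2 (56.8 RPM) and eGFP replicate 1 for ADAR (221 RPM). MAVS (134 reads, 53.5 RPM, 44.8 to 63.3) was the highest of all 6 libraries, and its interval overlapped that of eGFP replicate 1 (35.4 to 46.7). The exact upper 95% limit of DDX60 there, 1.47 RPM, lies below the 8.39 to 23.8 RPM of the other controls. Leaving this library in the fits removed every call of a sensor gene in both comparisons. The fold changes of the members that rose were not lowered, but this could hardly have come out otherwise. Against eGFP the library is in neither arm, and among pooled controls its lower levels of these members could only raise the difference.

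The genes around the sensors in the same pathways were examined with lists drawn up by hand, in which most genes did not pass the test. Of 22 tested genes that signal from or regulate the RNA sensors, 2 rose and 0 fell against eGFP, and the median was 0.03 on the log2 scale. Those were IRF7, the interferon regulatory factor that amplifies interferon production, and ZC3HAV1, which encodes the antiviral zinc finger protein ZAP. IRF7 had 10 and 41 reads in the eGFP libraries (1.95 and 4.01 RPM), 66 in wt replicate 2 (4.12 RPM), and 1092 and 1233 in the GIRK1 libraries (98.3 and 119 RPM), a log2 fold change of 5.08 ± 0.35 (SE; edgeR, adjusted p = 0.0021). ZC3HAV1 rose from 47.8 and 43.0 RPM in the eGFP libraries to 152 and 160.2 RPM (log2 1.74 ± 0.22 SE; edgeR, adjusted p = 0.017). Both were also called against the 3 controls. The remaining 20 tested genes, among them the adaptor TRAF3, the kinase TBK1 and the transcription factor IRF3, did not pass.

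Of 15 genes of cytosolic DNA sensing, 1 rose and 0 fell, with a median of -0.12. It was IFI16, a DNA sensor of the same family as AIM2, which had 110 and 106 RPM in the eGFP libraries, 120.3 RPM in wt replicate 2, and 320 and 340.2 RPM in the GIRK1 libraries (log2 1.57 ± 0.21 SE; edgeR, adjusted p = 0.022). The largest log2 fold change of the list was that of SAMHD1, which degrades deoxynucleotides, at 2.23 ± 0.49 (SE; edgeR, adjusted p = 0.086; called by DESeq2, adjusted p = 0.00030), with 12.5 and 4.69 RPM in the eGFP libraries and 33.2 and 47.4 RPM in the GIRK1 libraries. Among 12 related helicases, DDX60L alone rose, from 7.02 and 5.47 RPM to 27.3 and 42.2 RPM (log2 2.45 ± 0.35 SE; edgeR, adjusted p = 0.026), and the median was -0.03.

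Few partners of PKR, ADAR and TLR3 were called. Of 12 tested PKR partners, eIF2 alpha kinases and related genes none was called by edgeR or DESeq2 and 0 had an unadjusted p below 0.05, with a median of 0.02 and the largest value for DNAJC3, an inhibitor of PKR (0.42 ± 0.24 SE). None of 8 tested genes of double-stranded RNA editing and binding was called by edgeR or DESeq2, with a median of -0.03, and STRBP, with the largest value (0.60 ± 0.25 SE), was the 1 gene with an unadjusted p below 0.05. Of 5 tested genes of the endosomal Toll-like receptors, none was called against eGFP by edgeR (2 at an unadjusted p below 0.05, and UNC93B1 alone by DESeq2). UNC93B1, which carries these receptors to the endosome, was called against the 3 controls at a log2 fold change of 1.13 ± 0.19 (SE; edgeR, adjusted p = 0.045), with 40.2 and 47.0 RPM in the eGFP libraries, 38.8 RPM in wt replicate 2, and 82.7 and 103.8 RPM in the GIRK1 libraries. Of 8 tested inflammasome and necroptosis partners, IFI16 rose and IL1B fell. IL1B, the cytokine released by inflammasomes, had 190.4 and 99.4 RPM in the eGFP libraries, 17.1 RPM in wt replicate 2, and 4.50 and 3.77 RPM in the GIRK1 libraries (log2 -5.18 ± 0.43 SE; edgeR, adjusted p = 0.0037). Its parental value lay far below the eGFP values, and against the 3 controls it missed the threshold (log2 -4.67 ± 1.04 SE; edgeR, adjusted p = 0.091), although DESeq2 called it.

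**Figure D5:**
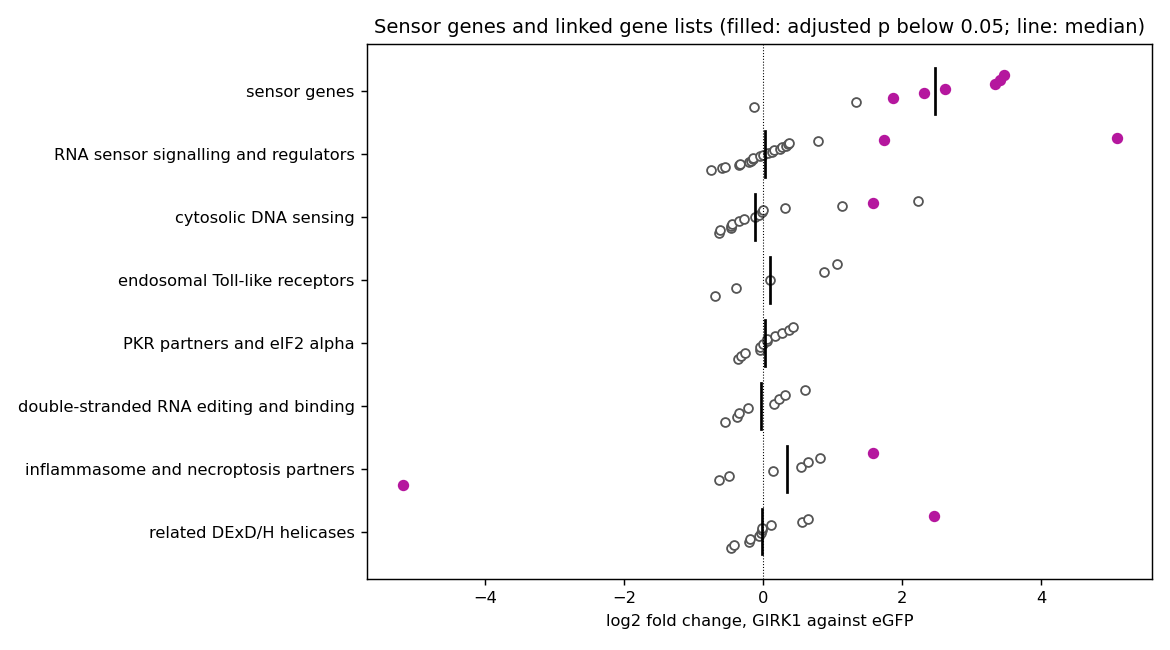
Log2 fold changes of GIRK1 against eGFP for the tested genes of the sensor group and of 7 lists of linked genes, 1 point a gene, filled where the adjusted p was below 0.05, with a line at each list's median. The sensor genes have their median at 2.47, and the other lists have medians of -0.12 to 0.34 with IRF7 (5.08) and IL1B (-5.18) far from their lists.

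Markers of other cell types were examined in the same fits. Of the 6 tested luminal markers none was called by edgeR, and AGR2, the 1 gene that DESeq2 called, had the largest log2 fold change (2.71 ± 0.69 SE; edgeR, adjusted p = 0.11). The summed level of the 8 immune markers was 34.8 and 30.8 RPM in the GIRK1 libraries, within the 22.0 to 45.4 RPM of the 3 controls, and it came from CD14 and CD68 alone. The 7 fibroblast markers summed to 31.9 and 33.5 RPM in the GIRK1 libraries and 8.60 to 13.7 RPM in the 3 controls, mostly by DCN, which rose against eGFP (log2 3.37 ± 0.51 SE; edgeR, adjusted p = 0.033). Against the 3 controls DCN missed the threshold (log2 2.29 ± 0.66 SE; edgeR, adjusted p = 0.14), although DESeq2 called it, with 10.2 RPM in wt replicate 2 against 0.780 and 3.71 RPM in the eGFP libraries. COL1A1, the only other tested fibroblast marker, had a log2 fold change of -0.13, and the part of DCN-expressing cells in the results above was not tested. Among the basal markers, KRT17 rose (log2 2.17 ± 0.22 SE; edgeR, adjusted p = 0.0076). It does not stand for its list, since the median log2 fold change over the 9 tested basal markers was -0.59 against eGFP.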

How the data were processed

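RNA of 6 samples labelled as MCF10A was amplified with the Ion AmpliSeq Transcriptome kit and sequenced on an Ion S5 XL. Mapping to the amplicon reference of the kit was done by the authors in the Ion Torrent software. What they deposited for the 20812 amplicons are raw read counts (total, forward and reverse). The deposited RPM is each count scaled to the library total. A total of 10 spike-in rows held 0 reads and were left out. Groups and replicate numbers come from the labels.

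The counts were tested in edgeR 4.0.16 (R 4.3.3; TMM, filterByExpr, quasi-likelihood test, Benjamini-Hochberg adjustment over all genes tested, threshold 0.05) on 5 libraries, with wt replicate 1 left out. Standard errors were derived from the F value. The residual degrees of freedom were 2 for group means and 3 with the controls pooled. DESeq2 1.42.0, other scalings and filters, all 6 libraries, the replicate number as a block and leaving out each library were alternatives. Intervals are exact (Clopper-Pearson) and hold for counting error alone, because reads copied by PCR do not stand for separate molecules. With 1 amplicon a gene, isoforms and close copies cannot be told apart.

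The members and lists were chosen with earlier results of these data known. Named are all 10 members, KCNJ3, and of each other list the genes called in either comparison (up to 4, by the p of the pooled one) plus the tested gene with the largest absolute log2 fold change against eGFP. A gene that this rule names among the basal markers is not reported here. Other genes named with no test result of their own (TRAF3, TBK1, IRF3, COL1A1, CD68 and the markers at 0) were added as illustrations after their values were seen. The gene lists are written by hand and TICAM1 was not analysed here. Gene positions are from GENCODE v29 (GRCh38), matched by symbol, and DDX58 is held as RIGI in the RefSeq promoter table.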

Additional observations from a re-analysis of the deposited data

Results flagged for a closer look

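The library labelled wt replicate 1 holds signals outside the comparisons. KCNJ3 was read there at 19.2 RPM (48 reads, exact 95% interval 14.1 to 25.4 RPM), whereas the other wt library and both eGFP libraries had 0 reads. The summed level of the 10 luminal markers was 18911 RPM there, against 531 to 1029 RPM in the other 5 libraries. Groups of 2 libraries are too small for a search for single outlying values.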

How the results depend on the processing

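The 7 tested members other than MAVS were higher in GIRK1 cells in every alternative run, and the sign of MAVS turned in 3 (against eGFP 0.30 without eGFP replicate 1 and 0.10 without GIRK1 replicate 1, against the 3 controls 0.054 without GIRK1 replicate 1), with ranges of -0.49 to 0.30 and -0.48 to 0.054 without 1 library. Of the members' fold changes under alternatives, 153 kept the side of the threshold, 29 lost it and 11 gained it. The genes called against eGFP numbered 188, but 865 with no filter, 107 with at least 10 reads in every library (of which 4 sensor genes, since DHX58 and TLR3 were then not tested), 660 with the DESeq2 test, 0 with all 6 libraries, and 158 to 2997 without 1 library (973 without eGFP replicate 1 and 2997 without eGFP replicate 2). The sensor genes called were then 4 to 7, and 0 with all 6 libraries. Against the 3 controls 91 genes were higher and 47 lower, and the calls numbered 374 with no filter, 773 with the DESeq2 test, 7 with all 6 libraries (0 sensor genes), and 19 to 984 without 1 library (984 without eGFP replicate 1, 31 without eGFP replicate 2, 33 without GIRK1 replicate 1 and 19 without GIRK1 replicate 2), with 1 to 7 sensor genes. Where an arm was left with 1 library, it was assumed to vary like the others. The median log2 fold change against wt replicate 2 was 1.89 with total reads alone, 1.91 with DESeq2 size factors, and 1.90 to 2.02 without 1 library, the highest being without GIRK1 replicate 1. The causes were not tested.

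Whether the replicate numbers pair the libraries is not stated, and the values here do not settle it. Across 9212 genes, deviations from the group means correlated at 0.19 between eGFP and GIRK1, 0.12 between eGFP and wt and 0.03 between GIRK1 and wt. Both values with wt rest on wt replicate 1, whose markers go against its label, so they cannot decide the question. With the replicate block, 549 genes were called against eGFP and 558 against the 3 controls, with 7 sensor genes in each.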
